A study of Mus musculus with 12 samples.

Results

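Argonaute (Ago) HITS-CLIP of wild-type (WT) mouse fetal liver was compared with the control precipitation from the same genotype. In HITS-CLIP, RNA is crosslinked to protein by ultraviolet light, the protein is precipitated with an antibody, and the attached RNA fragments are sequenced. The comparison holds 6 of the 12 libraries of the series: WT Ago libraries 1, 9 and 10, precipitated with an Ago antibody, and WT IgG libraries 2, 6 and 11, precipitated with control IgG. They were chosen by genotype and antibody alone, and are named by their group and the number in their title. All animals were C57BL/6J, and the WT group carried an intact miR-144/451 locus. The other 6 libraries came from fetal liver that lacks this locus (KO), precipitated with the Ago antibody (libraries 3, 12 and 13) or with IgG (4, 8 and 14). They are used below only as a separate set of libraries with the same pair of antibodies. The sources used here give neither the age of the embryos nor which Ago and IgG libraries came from one liver.

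The values are raw reads in 106382 peaks, with a median width of 27 nt, that the authors called on the pooled Ago libraries. The Ago libraries held 202876 to 452157 reads in peaks and the WT IgG libraries 25985 to 42399. Reads outside peaks were not counted, so an RNA held by IgG alone is seen only where Ago reads also made a peak, and the choice of peaks favours Ago. Between 74.9% and 93.3% of the peaks held a read in a given WT Ago library, against 13.1% to 21.4% in a WT IgG library. Summed over libraries, the Ago group held 8.90 reads for each IgG read, and the comparisons below are of shares within a library. Of 46 erythroid marker genes, 43 held reads in the WT Ago libraries and 43 in the WT IgG libraries, and of 42 hepatocyte marker genes 39 and 36, while 0 of 12 globin genes had a peak. No label says that each library came from a separate animal, so a p-value reflects how these libraries varied, which may be technical in part.

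Ago proteins carry microRNAs, short RNAs that guide them to messenger RNAs. Target sites usually pair with the seed, bases 2 to 8 of the microRNA, and lie mostly in the 3'UTR, where binding lowers translation and shortens the life of the transcript. The miR-144/451 locus is an erythroid locus, miR-122 is the main microRNA of hepatocytes, and miR-16 and miR-21 are made in many cell types. The authors' table gives, for each peak, the best seed match of 6 mature microRNAs. The sequences of 5 of them, from RefSeq (GRCm38.p6), are shown because every seed class below is defined by the capitals, which mark bases 2 to 8.
miR-451a: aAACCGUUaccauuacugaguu
miR-144-3p: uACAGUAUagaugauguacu
miR-144-5p: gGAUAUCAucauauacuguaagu
miR-16-5p: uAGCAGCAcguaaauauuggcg
miR-21a-5p: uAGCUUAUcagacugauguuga
No pair among these 5 shares a seed. In the target, the 7-mer-m8 match is aacggtt for miR-451a, atactgt for miR-144-3p, tgatatc for miR-144-5p, tgctgct for miR-16-5p and ataagct for miR-21a-5p. Mir144 and Mir451a lie on chromosome 11, with the mature miR-144-5p at chr11:78073010-78073032, miR-144-3p at chr11:78073047-78073066 and miR-451a at chr11:78073186-78073207 on the plus strand. miR-21a-5p lies at chr11:86584120-86584141 on the minus strand, and the copy of miR-16-5p from Mir16-2 at chr3:69009918-69009939 on the plus strand.

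The first question was which parts of transcripts Ago held above the antibody background. Ago libraries carried more of their reads in mature messenger RNA, and IgG libraries more in intergenic and intronic peaks. In WT Ago libraries 1, 9 and 10, 3'UTR peaks took 24.8%, 35.3% and 28.4% of the peak reads, against 18.9%, 13.9% and 18.5% in WT IgG libraries 2, 6 and 11. Each Ago library lay above each IgG library. The share in coding peaks was 35.8%, 36.7% and 34.9% in Ago, and 22.9%, 15.2% and 17.2% in IgG, again without overlap. Peaks in 5'UTRs took 2.63% ± 0.248 of the reads in Ago and 1.37% ± 0.196 in IgG (SD, n = 3 each).

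The reverse held for intergenic peaks, which took 21.6%, 12.3% and 19.5% of the reads in Ago and 37.5%, 48.3% and 40.5% in IgG. Intronic peaks took 10.6% ± 0.668 in Ago and 16.3% ± 1.27 in IgG, and lincRNA peaks, which lie in long intergenic noncoding RNAs, 0.429% ± 0.0889 and 1.22% ± 0.358 (SD, n = 3 each). Pseudogene peaks took more reads in Ago (1.69% to 2.03% against 0.998% to 1.32%). Peaks in introns of lincRNA genes and peaks upstream or downstream of genes took more in IgG. In 10 of 11 classes the groups did not overlap, and each of these differences had an exact permutation p = 0.1 (two-sided), the smallest that 3 against 3 libraries can give, and an adjusted p = 0.11 over the 11 classes. The remaining class, miscellaneous transcripts, had an exact permutation p = 0.8. Expressed as a ratio of shares of summed reads, Ago over IgG, the values were 1.96 for coding (95% counting interval 1.93 to 1.99), 1.92 for 5'UTR (1.82 to 2.02), 1.82 for 3'UTR (1.79 to 1.85), 0.640 for introns (0.630 to 0.650), 0.393 for intergenic (0.389 to 0.397) and 0.355 for lincRNA (0.333 to 0.378). These intervals cover counting error only.

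**Figure D1:**
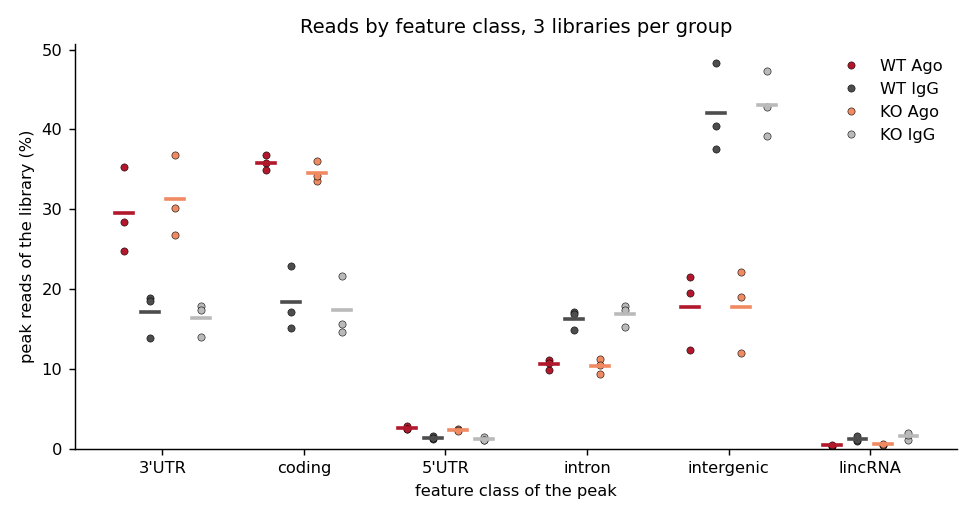
Percent of the peak reads of each library (vertical axis) by feature class of the peak (horizontal axis). Points are libraries and bars are means of 3 libraries per group, for WT and KO liver and both antibodies. The WT Ago points lie above the WT IgG points for 3'UTR, coding and 5'UTR peaks and below them for intron, intergenic and lincRNA peaks, and the intergenic means are 17.8% and 42.1%.

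The intergenic share weighed on all others, so the shares were also taken over peaks with a gene. On that base the 3'UTR share was 31.6%, 40.3% and 35.3% in Ago against 30.2%, 26.9% and 31.1% in IgG. The lowest Ago library lay close to the highest IgG library, without overlap. The coding share was 41.9% to 45.7% in Ago and 28.8% to 36.7% in IgG, and the intron share 11.2% to 14.1% and 23.8% to 33.1%. Each had an exact permutation p = 0.1, the smallest possible. The pseudogene share overlapped on this base, at 1.93% to 2.58% in Ago and 1.93% to 2.16% in IgG (exact permutation p = 0.5). The pseudogene difference over all peaks was therefore not found here. Ago did not favour the 3'UTR over the coding sequence of the same transcripts beyond the spread between libraries. Over 4878 genes with peaks of both classes, the log2 ratio of 3'UTR over coding reads was -0.25 ± 0.24 in Ago and -0.03 ± 0.21 in IgG (SD, n = 3 each). The difference of -0.22 had an exact permutation p = 0.4, and the groups overlapped.

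The second question was which seed classes Ago held above background. In a 6-mer the target pairs with bases 2 to 7 of the microRNA; a 7-mer-A1 adds an A opposite base 1, a 7-mer-m8 a pair with base 8, and an 8-mer both. Seed matches of miR-451a showed the widest gap of the 6 microRNAs as a ratio, and those of miR-144-3p came next. Of all peak reads, those in peaks with at least a 7-mer-A1 match to miR-451a made up 1.17%, 1.04% and 0.938% in Ago libraries 1, 9 and 10, against 0.319%, 0.420% and 0.246% in IgG libraries 2, 6 and 11. The lowest Ago library held more than 2 times the share of the highest IgG library. Matches to miR-144-3p took 2.83%, 2.82% and 2.32% in Ago, and 1.25%, 1.18% and 1.14% in IgG. These groups also stood apart.

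Matches to miR-16-5p took 4.89%, 4.94% and 4.68% in Ago, and 4.07%, 2.35% and 2.31% in IgG, with IgG library 2 well above the other IgG libraries. Those to miR-122-5p took 0.775%, 0.914% and 1.39% in Ago and 0.642%, 0.705% and 0.404% in IgG, with Ago library 10 highest, the Ago library that also held the most hepatocyte reads. Those to miR-144-5p, the passenger strand, took 0.490% to 0.598% in Ago and 0.292% to 0.437% in IgG. All 5 families differed without overlap, each with an exact permutation p = 0.1, the smallest possible, and an adjusted p = 0.12 over the 6 microRNAs. The exception was miR-21a-5p, with 0.276% to 0.357% in Ago and 0.290% to 0.435% in IgG (exact permutation p = 0.8).

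**Figure D2:**
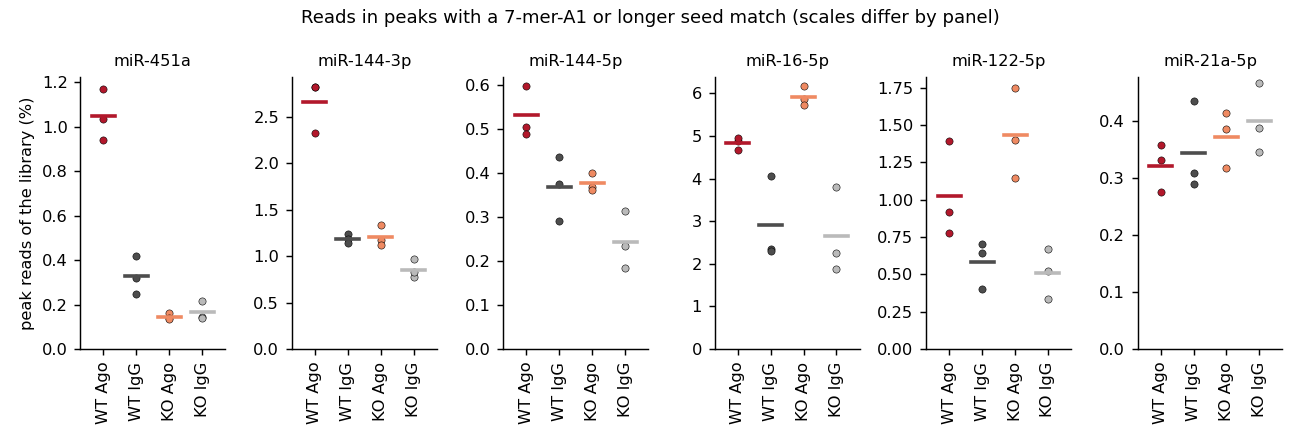
Percent of the peak reads of each library (vertical axis, scaled separately per panel and starting at 0) in peaks with a 7-mer-A1 or longer seed match of each microRNA. Points are libraries and bars are means of 3 libraries per group. For miR-451a the WT Ago libraries lie between 0.938% and 1.17% and all 9 others at or below 0.420%.

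The Ago libraries also held more of their reads in 3'UTR and coding peaks, so the shares were taken within a class. Within 3'UTR peaks the share of miR-144-3p matches was 4.76%, 4.13% and 3.87% in Ago and 2.04%, 2.93% and 2.43% in IgG, without overlap. The share of miR-451a matches was 1.13%, 0.775% and 0.801% in Ago and 0.349%, 0.780% and 0.499% in IgG, where IgG library 6 reached the lower Ago libraries (exact permutation p = 0.2). The overlap lay in the 7-mer-A1 peaks, at 0.322% to 0.476% in Ago and 0.126% to 0.407% in IgG (exact permutation p = 0.3). The 8-mer and 7-mer-m8 peaks each stood apart, as did 6-mer peaks, which these shares leave out (each exact permutation p = 0.1). The lowest Ago and highest IgG shares were 0.354% and 0.322% for 7-mer-m8, and 1.11% and 0.492% for 6-mer peaks. Matches to miR-16-5p took 5.19% to 5.42% of the 3'UTR reads in Ago and 3.64% to 6.63% in IgG (exact permutation p = 0.8). The miR-16-5p difference over all peaks was therefore not found within the 3'UTR. For miR-122-5p the 3'UTR shares were 0.795% to 1.31% in Ago and 0.208% to 1.22% in IgG (exact permutation p = 0.4). Within coding peaks, miR-451a (0.981% to 1.31% against 0.247% to 0.808%) and miR-144-3p (1.46% to 1.98% against 0.901% to 1.01%) stood apart, each at an exact permutation p = 0.1. The other families overlapped there. Matches to miR-16-5p took 5.91% ± 0.444 of the coding reads in Ago and 5.91% ± 1.55 in IgG (exact permutation p = 1), and those to miR-122-5p 1.43% ± 0.565 and 1.42% ± 0.641 (exact permutation p = 0.9; SD, n = 3 each). Matches to miR-144-5p overlapped within coding peaks (exact permutation p = 0.3) and within 3'UTR peaks (exact permutation p = 0.5), and those to miR-21a-5p did too (exact permutation p = 0.2 and 1). Of the 5 families that stood apart over all peaks, miR-144-3p alone stood apart within both classes when all matches of at least a 7-mer-A1 were pooled.

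For miR-451a the gap was wider at seed matches than at imperfect ones. The ratio of shares of summed reads, Ago over IgG, was 4.55 for 8-mer peaks (95% counting interval 3.19 to 6.72), 3.11 for 7-mer-m8 (2.67 to 3.63), 2.80 for 7-mer-A1 (2.38 to 3.30) and 3.77 for 6-mer peaks (3.39 to 4.21). It was 2.01 for offset 6-mers, 1.42 for a single mismatch in the seed and 0.933 for peaks without any code. Among single mismatches, the ratio was 2.36 (2.21 to 2.52) with the mismatch at seed position 7 and 0.978 (0.911 to 1.05) with it at position 2. For miR-144-3p the ratios were 2.21 for 8-mer, 2.22 for 7-mer-m8, 2.35 for 7-mer-A1 and 1.58 for 6-mer peaks, so the 3 longer classes did not differ beyond their counting intervals. For miR-16-5p they ran from 1.53 for 8-mer to 2.06 for 7-mer-A1 peaks. Taking the 6 microRNAs together, peaks with any 7-mer-A1 or longer match took 9.99% to 10.4% of the reads in Ago and 4.71% to 6.93% in IgG. The same share within intergenic peaks was 5.24% to 6.55% in Ago and 2.55% to 3.16% in IgG, within introns 10.4% to 12.4% and 3.92% to 5.34%, and within 3'UTR peaks 11.6% to 12.9% and 7.39% to 10.9%, each without overlap. Within coding peaks the groups overlapped, at 10.2% to 11.6% in Ago and 7.51% to 11.3% in IgG (exact permutation p = 0.3).

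**Figure D3:**
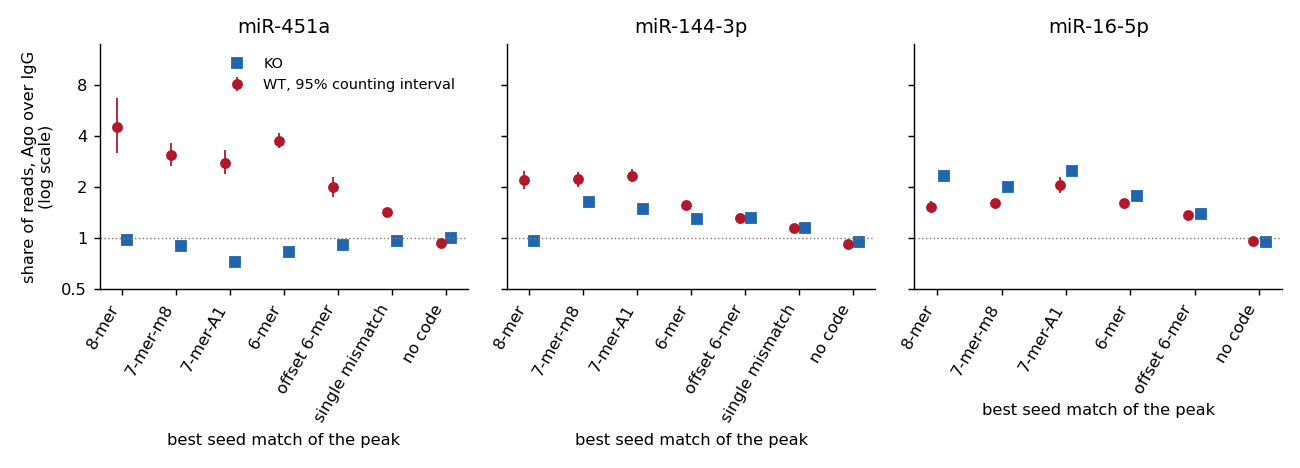
Share of reads in Ago over the share in IgG (vertical axis, log scale) by the best seed match of the peak, from reads summed over 3 libraries per group. Circles are WT with 95% counting intervals and squares are KO. The WT miR-451a ratios lie between 2.80 and 4.55 for 6-mer and longer matches and at 0.933 without a code, and the KO ratios between 0.722 and 1.00.

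The KO libraries, precipitated with the same pair of antibodies, gave like shares for the feature classes and lower Ago shares for miR-451a and miR-144-3p matches. Intergenic peaks took 17.7% ± 5.17 of the reads in KO Ago and 43.1% ± 4.09 in KO IgG, and 3'UTR peaks 31.3% ± 5.08 and 16.4% ± 2.13 (SD, n = 3 each). Those with at least a 7-mer-A1 match to miR-451a took 0.146% ± 0.0124 in KO Ago and 0.165% ± 0.0430 in KO IgG. The difference between antibodies was 0.720 percentage points in WT and -0.0190 in KO, and the difference of these differences, 0.739, had an exact permutation p = 0.1 over 400 regroupings. For miR-144-3p it was 1.11 (exact permutation p = 0.105). The deleted locus also makes miR-144-5p, whose difference between antibodies was 0.164 percentage points in WT and 0.133 in KO (exact permutation p = 0.785). After adjustment over the 6 microRNAs both miR-451a and miR-144-3p had adjusted p = 0.255, so neither passed, and the feature classes had exact permutation p from 0.41 to 0.94. The test exchanged genotype labels within each antibody and was chosen after the data were seen. For miR-451a the genotypes differed by 0.902 percentage points among the Ago libraries and by 0.163 among the IgG libraries, and regrouping the Ago libraries alone gave an exact permutation p = 0.1, the smallest that 3 against 3 allow. With a difference carried so largely by the Ago libraries the test could not pass, and its miss does not show that the genotypes were alike. The WT IgG libraries themselves held more miR-451a match reads (0.246% to 0.420%) than the KO IgG libraries (0.138% to 0.214%), so the background also differed by genotype.

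The third question was which genes Ago held above background, with the reads of all peaks of a gene summed. The genes higher in Ago had few or no IgG reads, and in most of the genes lower in Ago introns held the largest part of the reads. Of 2603 genes with enough reads, 52 were higher in Ago (2.0%) and 339 lower (13.0%) by the edgeR quasi-likelihood test at a Benjamini-Hochberg adjusted p under 0.05. At an unadjusted p under 0.05 the counts were 234 and 423. The filter asks for 17.5 to 42.4 reads in an Ago library but only 1.65 to 2.54 in an IgG library. Genes with few Ago reads therefore entered only where IgG was high, and for these a lower call was the only one open. The 13.0% and the makeup of the lower genes rest in part on this. The median log2 change of all tested genes was 0.13, and the groups did not overlap in 33.2% of them. The test compares shares: no change means that 14.1 raw Ago reads faced each IgG read, and in raw reads nearly all genes were higher in Ago. With the total gene reads as the only scale, the median moved to 0.34 and 131 genes were higher.

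Of the 15 higher genes with the smallest p, those known for a role in cell division or DNA replication are described first, an order set from their names and not tested. Kif11, a mitotic kinesin, had 231, 419 and 127 reads in Ago (WT libraries 1, 9 and 10) and 7, 7 and 3 in IgG (libraries 2, 6 and 11). Kif14, a kinesin of cytokinesis, had 74, 157 and 42 against 0, 1 and 1. Nuf2, a kinetochore protein, had 77, 149 and 47 against 2, 0 and 1. For each of these genes the Ago libraries lay above the IgG libraries relative to the reads of the library. The log2 changes were 1.57 ± 0.39 for Kif11, 3.09 ± 0.78 for Kif14 and 2.55 ± 0.69 for Nuf2 (fitted change ± SE, n = 3 each), with edgeR quasi-likelihood adjusted p of 0.0022, 0.0023 and 0.0052. Pds5a, a regulator of cohesin, had 214, 392 and 100 against 6, 7 and 2 reads, Mis18a, a centromere factor, 50, 108 and 37 against 1, 0 and 0, and Lig1, a replicative DNA ligase, 41, 81 and 25 against 0, 0 and 0. For Lig1 the share of gene reads was at least 3.80-fold higher in Ago, taking 3 reads over the IgG group as the floor. The same bound was 3.18-fold for Gpsm2, a spindle orientation protein, with 30, 72 and 21 against 0, 0 and 0 reads.

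The other genes named by p on the higher side had various roles. Slc7a1, a cationic amino acid transporter, had 103, 169 and 49 reads in Ago and 3, 0 and 1 in IgG (log2 change 2.38 ± 0.63, edgeR quasi-likelihood adjusted p = 0.0040). Blvrb, a reductase of haem breakdown that is abundant in red cells, had 108, 79 and 51 against 0, 1 and 1 (3.07 ± 0.83, adjusted p = 0.0046). The largest part of its reads lay in the 5'UTR class, unlike the others. Pip4k2a, a phosphoinositide kinase, had a log2 change of 2.93 ± 0.81, Adipor1, a receptor of adiponectin, 1.95 ± 0.55, Stard7, a lipid transfer protein, 2.47 ± 0.70, Kctd20 2.45 ± 0.73, and Sec24c, a component of the COPII coat, 1.92 ± 0.57. Eif1b, a relative of a translation initiation factor, had 39, 69 and 24 against 0, 0 and 0 reads, a share at least 3.41-fold higher. Among all 52, the largest part of the reads lay in coding peaks for 32, in 3'UTR peaks for 16, in introns for 3 and in the 5'UTR for 1, and 5 had no read in any IgG library. They held a median of 240 Ago and 3 IgG reads. The number of higher genes, and the number tested, moved with single libraries. It was 6, 3 and 21 without Ago library 1, 9 or 10, when 524 to 562 genes passed the filter, 153, 53 and 90 without IgG library 2, 6 or 11, when 4400 to 4496 passed, and 1 when peaks with a deposited IgG ratio of 0.2 or more were left out. The sign of each of the 52 held wherever it was tested among these settings. Single calls were lost without IgG library 6 for Nuf2, Kctd20 and Sec24c, and by limma-voom for Pds5a.

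**Figure D4:**
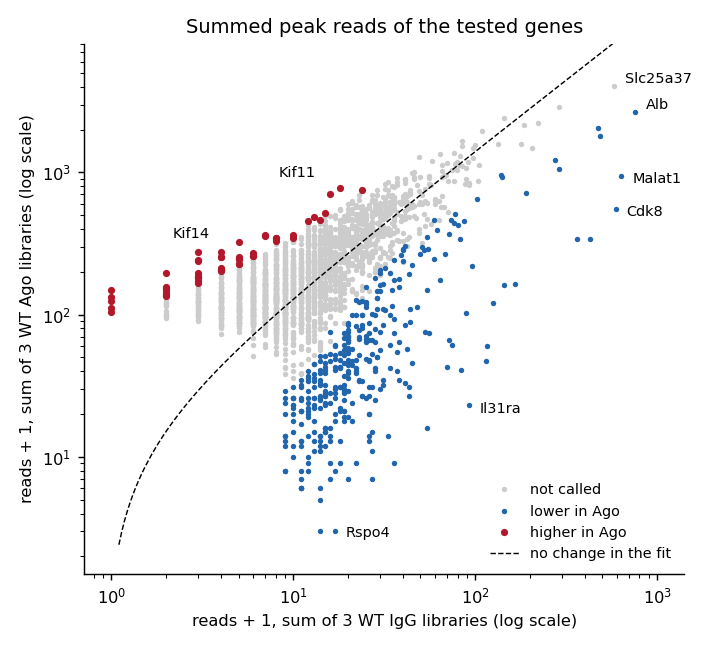
Reads of each tested gene summed over 3 WT Ago libraries (vertical axis) and over 3 WT IgG libraries (horizontal axis), both plus 1 and on log scales. Red points are the 52 genes higher in Ago, blue points the 339 lower and grey points genes not called, and the dashed line is no change in the fit. The red points lie at low IgG counts, and Alb, Malat1 and Cdk8 lie at the right edge below the line.

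The lower genes were mostly genes read in introns. Il31ra, a cytokine receptor, had 7, 5 and 10 reads in Ago and 25, 47 and 19 in IgG. Its raw reads were higher in each IgG library than in any Ago library, although the IgG libraries were far shallower. Kcnip1, a potassium channel partner, had 3, 4 and 8 against 17, 25 and 11, and Rspo4, a Wnt pathway ligand, 1, 0 and 1 against 5, 6 and 5, from a single intronic peak. The log2 changes were -5.84 ± 0.41 for Il31ra, -5.61 ± 0.50 for Kcnip1 and -6.46 ± 0.68 for Rspo4 (fitted change ± SE, n = 3 each), with edgeR quasi-likelihood adjusted p of 1.01e-16, 2.45e-13 and 5.39e-11. Col6a6, a collagen gene, Gphn, a scaffold of inhibitory synapses, Cd44, a hyaluronan receptor, Trpm3, a cation channel, Camk1d, a calmodulin-dependent kinase, and Peak1 also had the largest part of their reads in introns. Their log2 changes ran from -4.90 ± 0.36 for Col6a6 to -3.61 ± 0.34 for Camk1d. In Col6a6 a single intronic peak held 82.1% of the reads.

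The other lower genes named by p were Gm15564, a lincRNA (11, 19 and 16 reads against 27, 65 and 21, log2 change -5.13 ± 0.38), 9330185C12Rik (-4.52 ± 0.39), Aamdc, with most reads upstream of the gene (-4.80 ± 0.36), Tie1, an endothelial receptor whose 1 peak lay downstream of the gene (-5.89 ± 0.61), and Lars2, a mitochondrial leucyl-tRNA synthetase. Lars2 had 86, 163 and 92 reads in Ago and 101, 170 and 91 in IgG, largely in the 3'UTR class (-3.95 ± 0.41). Its raw reads were nearly equal in the antibodies, although the Ago libraries were far deeper. Of the 339 lower genes, 212 (62.5%) had the largest part of their reads in introns, against 3 of the 52 higher genes (5.77%) and 8.03% of genes not called. In 58 of them the 3 IgG libraries together held more raw reads than the 3 Ago libraries. The lower genes took 3.44% to 5.33% of the peak reads in Ago libraries and 10.4% to 14.9% in IgG libraries, values that the calls themselves set apart. Without Ago library 1, 9 or 10, 74, 64 and 97 genes were lower among the fewer genes tested.

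Of the 8 genes with the most reads in each precipitate, 4 were shared: Slc25a37, Alb, Afp and Gm16867. The peaks with the most WT Ago reads in Slc25a37 and Gm16867 lay at chr14:69244046-69244076 and chr14:69462507-69462533. Whether these 2 names share reads was not tested, so they may not be separate. In read counts, not scaled for length, the 8 at the top were Slc25a37, Alb, Slc4a1, Cltc, Tfrc, Mki67, Afp and Gm16867 in WT Ago. In WT IgG they were Alb, Malat1, Slc25a37, Cdk8, Gm16867, Afp, Cmss1 and Lars2. Slc25a37, the mitochondrial iron importer of erythroid cells, had 1046, 2125 and 859 reads in Ago and 141, 166 and 272 in IgG, with a log2 change of -1.22 ± 0.48 that did not pass (edgeR quasi-likelihood adjusted p = 0.084). Tfrc, the transferrin receptor (-0.62 ± 0.38), Slc4a1, the anion exchanger of the red cell membrane (-0.65 ± 0.40), Mki67, a proliferation marker (-0.47 ± 0.37), and Cltc, clathrin heavy chain (0.17 ± 0.36), did not pass either. Of the 8 genes with the most Ago reads, none was called higher, and Cltc alone had a positive log2 change. Malat1, a nuclear noncoding RNA, had 224, 466 and 253 reads in Ago and 173, 182 and 280 in IgG (-3.37 ± 0.49, edgeR quasi-likelihood adjusted p = 1.93e-07). Cdk8, a kinase of the Mediator complex, had 149, 216 and 189 against 145, 341 and 105, mostly in introns (-3.84 ± 0.49), and Cmss1, also mostly intronic, 95, 123 and 122 against 121, 219 and 85 (-4.05 ± 0.44).

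Gene lists showed which kinds of RNA stood above or below the IgG level. Of 27 tested hepatocyte genes, 11 were lower (40.7%, against 13.0% of all tested genes) and 0 higher, with a median log2 change of -1.18 and no positive value. Afp, the fetal serum albumin relative, had 374, 689 and 730 reads in Ago and 134, 207 and 145 in IgG (-1.85 ± 0.45, edgeR quasi-likelihood adjusted p = 0.0017). Alb, albumin, had 553, 917 and 1180 against 227, 295 and 237 (-1.88 ± 0.52, adjusted p = 0.0054). Apoa1 (-1.74 ± 0.35) and Apoa2 (-1.51 ± 0.38), lipoprotein components, Ttr, transthyretin (-1.71 ± 0.38), and Fga, a fibrinogen chain (-1.64 ± 0.41), were lower too, although the groups overlapped for Apoa1 and Ttr. The calls of Afp and Alb were lost without Ago library 1 or 9, and that of Ttr without Ago library 9 or IgG library 6 and by DESeq2. That of Fga was lost without Ago library 9 or IgG library 6 or 11, and that of Apoa2 without Ago library 1 or 9 or IgG library 2 or 6. With no filter the calls of Apoa1, Ttr, Fga and Apoa2 were lost too. The list took 1.31%, 1.30% and 3.30% of the reads with a gene in Ago libraries 1, 9 and 10 and 3.58%, 4.85% and 5.02% in IgG libraries 2, 6 and 11, without overlap (exact permutation p = 0.1, adjusted p = 0.208 over the lists). Of all peak reads it took 1.03%, 1.14% and 2.65% against 2.24%, 2.51% and 2.99%, where the groups overlapped (exact permutation p = 0.3). Ago library 10 held more than 2 times the share of the other Ago libraries. In such bulk libraries a smaller number of cells of a type and less RNA per cell cannot be told apart.

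Of 39 tested erythroid genes, 2 were higher (5.13%, against 2.0% of all tested genes) and 0 lower, with a median of 0.14, close to the 0.13 of all genes. Klf1, an erythroid transcription factor, had 78, 137 and 41 reads in Ago and 1, 3 and 1 in IgG (1.73 ± 0.61, edgeR quasi-likelihood adjusted p = 0.047), and Epor, the erythropoietin receptor, 133, 253 and 78 against 7, 2 and 4 (1.21 ± 0.43, adjusted p = 0.049). Both calls lay close to the threshold. That of Klf1 was lost without IgG library 2 or 11 and by DESeq2. That of Epor was lost without Ago library 1 or 9 or IgG library 6 and by limma-voom. The erythroid list took 4.04% to 4.42% of the reads with a gene in Ago and 4.00% to 5.60% in IgG (exact permutation p = 0.9). Of the other cell type lists, granulocyte (8 tested), macrophage (3), progenitor (3) and endothelial and stellate genes (2) had 0 calls in either direction by edgeR, and no megakaryocyte gene was tested. Summed, the macrophage list took 0.0602% to 0.129% of these reads in Ago and 0.0388% to 0.0970% in IgG, and the granulocyte list 0.192% to 0.277% and 0.207% to 0.292%. The part of cell makeup in the gene results was not tested.

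Noncoding and mitochondrial RNAs had the lowest medians among the lists. The Ago reads of Meg3, Xist, Rps20, Hist1h4k, Gm26561 and the mitochondrial genes below did not reach the filter in all Ago libraries. These genes passed only with the help of their IgG reads, which favours a lower call. Of 5 tested abundant noncoding RNAs, 4 were lower, among them Malat1 and Meg3, an imprinted lincRNA with 20, 18 and 22 reads in Ago and 12, 10 and 11 in IgG (-2.93 ± 0.48). Xist, the RNA of the inactive X chromosome, was also lower (-2.28 ± 0.49), with overlapping groups. Igf2, the fetal growth factor, and H19, its noncoding neighbour, had log2 changes of -1.85 ± 0.38 and -1.85 ± 0.40, so that 3 of 7 tested imprinted genes were lower and 0 higher. The call of Igf2 was lost without Ago library 9 and that of H19 without Ago library 1 or 9. All 3 tested mitochondrially encoded genes were lower: mt-Co1 (-3.42 ± 0.43), mt-Nd6 (-3.43 ± 0.48) and mt-Co3 (-3.71 ± 0.58), the last with the same reads in every library as Gm28437, so that the 2 names cannot be told apart. The other mitochondrial genes of the 12 listed were not tested. The mitochondrial list took 0.0231% to 0.0429% of the reads with a gene in Ago and 0.110% to 0.485% in IgG, where library 11 was highest. Of 16 tested ribosomal protein genes, 3 were lower (18.8%, against 13.0% of all tested genes), namely Rps9 (-2.14 ± 0.42), Rps20 (-2.53 ± 0.56) and Rpl4 (-1.42 ± 0.33), with a median of -0.78. Of 38 tested histone genes, 6 were lower (15.8%, near that background), for example Hist1h4d (-1.62 ± 0.38), and 0 higher, with a median of -0.20. The calls of Rps9, Rpl4 and Hist1h4d were lost without IgG library 6. Histone copies are near-identical: the lower genes Hist1h4k and Hist1h4j each had a top peak with 24, 28 and 19 reads in Ago and 9, 4 and 10 in IgG, so the 6 are not separate, and Hist2h2aa1 and Hist2h2aa2 had the same reads in every library. Of 56 tested predicted genes with Gm names, 18 were lower (32.1%) and 0 higher, with a median of -0.31, among them Gm26561 (-4.36 ± 0.48) and Gm16867 (-1.94 ± 0.45), whose call was lost without Ago library 1 or 9.

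Of 31 tested cell division genes, 3 were higher (9.68%, against 2.0% of all tested genes) and 0 lower. Their median log2 change was 0.43 against 0.13 for all, and 27 values were positive (87.1%, against 55.4%). The higher ones were Kif11, Cdkn2d, an inhibitor of cyclin D kinases with 135, 241 and 81 reads against 5, 4 and 2 (1.45 ± 0.44, edgeR quasi-likelihood adjusted p = 0.015), and Aurka, a mitotic kinase with 74, 109 and 43 against 1, 1 and 2 (1.91 ± 0.67, adjusted p = 0.041). The call of Aurka was lost without IgG library 2 or 6 and by DESeq2. The list took 1.58% to 2.05% of the reads with a gene in Ago and 1.28% to 1.36% in IgG, without overlap (exact permutation p = 0.1, adjusted p = 0.208 over the lists). Among 15 tested genes known as targets of the deleted locus, 1 was higher (Cdkn2d) and 0 lower, with a median of 0.36. Of 12 tested targets of the miR-17 family 1 was higher, Rbl1, a retinoblastoma relative (1.06 ± 0.37), and of 6 tested miR-122 targets Slc7a1 was higher and P4ha1, a collagen hydroxylase, lower (-2.96 ± 0.63). P4ha1 had 4, 12 and 5 reads in Ago and 3, 4 and 4 in IgG. It passed the filter only through its IgG reads, which favours a lower call. The tested targets of miR-16 (7), let-7 (10) and miR-21 (3) had 0 calls by edgeR. So did the translation factors (17) and RNA-binding proteins (32), with medians of -0.07 and 0.25. In the Ago pathway, whose products load and act with the microRNA, 1 of 13 was lower, Pabpc1, the cytoplasmic poly(A)-binding protein (181, 315 and 156 reads against 32, 34 and 35, -1.21 ± 0.31). The call of Pabpc1 was lost without Ago library 9 or IgG library 6 or 11, with no filter and with the filter of 5 reads in 3 libraries. That of Rbl1 was lost by limma-voom and without Ago library 1 or 9 or IgG library 2 or 6, and that of Cdkn2d by limma-voom.

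Seed matches were unevenly spread over the called genes. The gene test did not use the match codes, but the reads of these peaks were part of the sums that made the calls. At least 1 peak with a 6-mer or longer match to miR-451a was present in 19 of the 52 higher genes (36.5%), in 20.7% of the genes not called and in 18 of the 339 lower genes (5.3%). Such peaks held 8.04% of the WT Ago reads of the higher genes, 2.64% of those of genes not called and 1.09% of those of the lower genes. In WT IgG libraries they held 6.97%, 1.44% and 0.0985%, so that within the few IgG reads of the higher genes the share was close to that in Ago. In KO Ago libraries the same peaks held 0.997%, 0.409% and 0.0982%. The WT values of the called genes rest on the reads that chose them, so their gap to KO is in part set by that choice. In Kif11 the peak with the most WT Ago reads lay in the 3'UTR at chr19:37421307-37421337 on the plus strand, carried a miR-451a 6-mer, and had 25, 50 and 17 reads in WT Ago, 0 in each WT IgG library and 2, 2 and 0 in KO Ago. In Pds5a it was a coding peak at chr5:65623072-65623099 on the minus strand with a miR-451a 6-mer, and had 80, 84 and 29 reads in WT Ago, 1, 5 and 1 in WT IgG and 5, 7 and 1 in KO Ago. For miR-144-3p, 50.0% of the higher genes, 46.4% of the genes not called and 16.2% of the lower genes held such a peak, and for miR-16-5p 73.1%, 65.8% and 28.9%. Lower genes had fewer peaks (median 5, against 22 in higher genes and 17 in those not called), and these shares were not corrected for the number of peaks.

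The gene comparison was repeated in the KO libraries, which share no library with the WT groups. The lower side recurred, under a filter that again lets in genes with few reads where IgG is high. Of the 339 genes lower in WT, 219 were tested in KO, 169 were lower there at the same threshold and 216 had the same sign. Of the 52 higher genes, 29 were tested, 2 were higher and 26 had the same sign. Of 1988 genes tested in KO, 43 were higher (2.16%) and 207 lower (10.4%). Over the 1873 genes tested in both, 1312 had the same sign, so 26 of 29 is to be read against that share. Sec24c was higher in both genotypes (KO log2 change 1.74, edgeR quasi-likelihood adjusted p = 0.032). Kif11 had 61, 114 and 36 reads in KO Ago and 10, 5 and 6 in KO IgG, a log2 change of -0.23 that did not pass. The genes lower in WT took 4.28% to 6.16% of the peak reads in KO Ago libraries and 11.7% to 16.3% in KO IgG, and the genes higher in WT 0.775% to 1.14% and 0.246% to 0.443%. A test of the difference between genotypes called 0 of 2654 genes by edgeR and 0 by DESeq2, with 55 and 66 genes at an unadjusted p under 0.05, and it recovered 23% of simulated 4-fold differences.

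Single peaks were the least deep unit, with 894 of 106382 tested. Their feature classes fell apart as the reads did. With the trimmed mean (TMM) scaling used throughout, 321 peaks were higher in Ago (35.9%) and 339 lower (37.9%) by the edgeR quasi-likelihood test. With the total peak reads of each library as the only scale, 57 were higher (6.38%) and 552 lower (61.7%). The scalings place no change at 1.79 and 8.62 raw Ago reads for each IgG read, so the count of higher peaks depends on where no change is set. Of the 321 peaks higher with TMM, 231 kept a positive log2 change on total reads. All 339 lower peaks were lower under both, but total reads set no change at a higher ratio and so move every change down. This agreement was therefore fixed in advance. Of the 339, 134 were still lower with no scaling for depth and 129 by DESeq2. The filter asks for 16.5 to 36.9 reads in an Ago library but only 2.12 to 3.46 in an IgG library, and so lets in peaks with few reads where IgG is high. The groups did not overlap in 77.7% of the tested peaks. Leaving out 1 library moved the number tested and the counts. Without an Ago library 240 to 246 peaks were tested, 47 to 50 higher and 29 to 39 lower, and without an IgG library 2602 to 3024 were tested, 870 to 1081 higher and 413 to 555 lower.

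Of 134 tested 3'UTR peaks, 109 were higher and 5 lower with TMM, and 22 and 21 with total reads. Of 176 coding peaks the counts were 142 and 3, and 25 and 21. Introns and intergenic peaks lay on the other side under either scale: of 129 intron peaks, 24 were higher and 70 lower, or 4 and 103, and of 382 intergenic peaks, 15 were higher and 240 lower, or 3 and 367. The median log2 change was 2.69 for 3'UTR, 2.36 for coding, 2.83 for 5'UTR, -1.20 for intron and -1.42 for intergenic peaks, against -0.14 for all. Higher peaks were wider than lower ones (median 35 against 22 nt). The authors' deposited IgG ratio, the peak height in IgG over that in Ago, had a median of 0.0987 in higher and 2.11 in lower peaks, and it rests on the same libraries. Without any model, among 16906 peaks with at least 15 reads, IgG held more raw reads than Ago in 16.9% of the 2950 intergenic and 22.1% of the lincRNA peaks, but in 0.186% of coding and 0.286% of 3'UTR peaks.

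**Figure D5:**
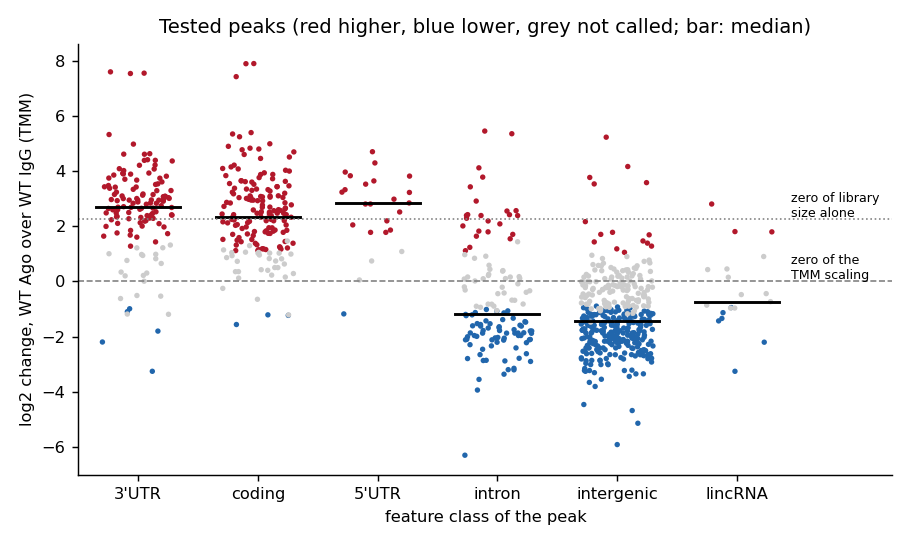
Log2 change of WT Ago over WT IgG (vertical axis) of the tested peaks in 6 feature classes (horizontal axis), red for higher, blue for lower and grey for not called, with the median of each class as a bar. The dashed line is the zero of the TMM scaling and the dotted line the zero with total reads alone. The medians of 3'UTR (2.69), coding (2.36) and 5'UTR peaks (2.83) lie near the dotted line, and those of intron and intergenic peaks below both lines.

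Several peaks were higher on both scales. A coding peak of Gpx1, the selenoprotein glutathione peroxidase, at chr9:108339494-108339536 on the plus strand had 40, 47 and 29 reads in Ago and 0, 0 and 0 in IgG. Its share was at least 4.34-fold higher, with an edgeR quasi-likelihood adjusted p = 1.85e-04 on total reads. Coding peaks of Tcp11l2 (60, 80 and 38 against 2, 1 and 0), of Sri, the calcium-binding protein sorcin (68, 64 and 45 against 3, 1 and 1), of Cd47, a surface ligand that limits phagocytosis (33, 41 and 23 against 0, 0 and 1), and of Ank1, the ankyrin of the red cell skeleton (143, 101 and 53 against 3, 6 and 2), were also higher on both. On total reads their log2 changes were 2.73 for Tcp11l2, 2.05 for Sri, 3.37 for Cd47 and 1.66 for Ank1. The histone gene peaks of Hist2h2bb (106, 119 and 92 against 4, 8 and 3) and Hist1h1b (67, 52 and 54 against 1, 3 and 2) were higher on both as well. A 3'UTR peak of Slc25a37 (75, 120 and 56 against 5, 4 and 3) passed with TMM but not on total reads (log2 change 1.23, adjusted p = 0.060). The coding peak of Fau, a ribosomal protein gene (69, 51 and 42 against 0, 2 and 1), and that of Gm9843 (67, 56 and 43 against 0, 2 and 1) had nearly the same reads, so that the genes cannot be told apart here. Both carried a miR-451a 6-mer and held 1, 4 and 2, and 1, 6 and 3 reads in KO Ago.

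Some higher peaks had no gene. The intergenic peak at chr6:38687664-38687714 on the minus strand had 49, 65 and 39 reads in Ago and 0, 2 and 0 in IgG (log2 change 3.12 on total reads, edgeR quasi-likelihood adjusted p = 0.0014). A pair at chr6:29298707-29298753 and chr6:29298841-29298867, both on the plus strand, had 28, 42 and 35 against 2, 1 and 0, and 39, 63 and 34 against 1, 3 and 2. The second of these carried a miR-144-3p 8-mer and held 7, 17 and 2 reads in KO Ago. On the lower side all 10 peaks named by p within genes were intronic but that of Tie1. An intron peak of Il31ra at chr13:112578646-112578675 on the minus strand had 0, 0 and 0 reads in Ago and 10, 7 and 4 in IgG. Intron peaks of Arih1 (1, 1 and 0 against 6, 7 and 8), Palm2 (1, 2 and 3 against 12, 13 and 8), Stag1 (2, 1 and 2 against 6, 7 and 6), Pola2 (0, 2 and 3 against 8, 13 and 7), Dpp10 (0, 1 and 1 against 5, 4 and 5) and Dlg2 (2, 1 and 3 against 6, 10 and 6) were lower with TMM, which fixes the call on total reads. The intergenic peak at chr5:143154708-143154735 on the minus strand had 0, 1 and 0 against 12, 10 and 7.

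By seed class, 22 of the 23 tested peaks that hold at least a 6-mer of miR-451a were higher with TMM, and 12 on total reads, where 57 of all 894 were. For peaks with a 7-mer-A1 or longer match the counts were 7 of 8 (3 on total reads) for miR-451a, 15 of 17 (6) for miR-144-3p and 30 of 32 (8) for miR-16-5p. The TMM counts are to be read against 35.9% of all tested peaks, 81.3% of 3'UTR peaks and 80.7% of coding peaks. Within the 3'UTR, 11 of 13 peaks with such a miR-16-5p match were higher, near the 94 of 115 without a miR-16-5p code. With TMM, 3 of 4 were higher and 1 lower for miR-122-5p, and 2 of 2 were higher for miR-144-5p. For miR-21a-5p 1 was higher, 1 lower and 1 not called. None of these last 3 families had a higher peak on total reads. The miR-144-5p peaks were coding peaks of Anp32b (44, 38 and 20 reads in Ago against 4, 3 and 1 in IgG) and Alb (16, 22 and 34 against 3, 7 and 5). On total reads their log2 changes were 0.56 for Anp32b and -0.73 for Alb, so the share of the Alb peak was not higher in Ago. Among the miR-122-5p peaks, coding peaks of Kng1, a kininogen (15, 40 and 26 against 5, 4 and 0), and Atp5a1, an ATP synthase subunit (21, 39 and 48 against 1, 6 and 0), were higher with TMM. An intron peak of Lrrfip1 (6, 3 and 0 against 8, 9 and 4) was lower with TMM, which fixes the call on total reads. The filter left 8 of the 544 miR-451a peaks of that class, so these counts describe the deepest few. The 3'UTR peak of Herpud1, a protein of the endoplasmic reticulum stress response, carried a miR-451a 7-mer-m8 and had 36, 53 and 24 reads in Ago against 2, 1 and 1 in IgG. Ubr4, a ubiquitin ligase, had a coding 7-mer-A1 peak with 39, 39 and 17 against 1, 1 and 1, which held 2, 1 and 1 reads in KO Ago, and Ints7, an Integrator subunit, an intronic one with 25, 59 and 19 against 0, 0 and 1. For miR-144-3p, the 3'UTR 8-mer of Pim1, a serine/threonine kinase, had 41, 71 and 40 against 1, 3 and 2, and the 3'UTR 7-mer-A1 of Otud4, a deubiquitinase, 24, 46 and 23 against 0, 0 and 1. A miR-21a-5p 7-mer-m8 peak in the coding sequence of Ccnf, a cyclin, had 42, 36 and 22 against 7, 1 and 2, and was higher with TMM alone. The intergenic miR-21a-5p peak at chr4:78774066-78774097 on the plus strand had 11, 10 and 11 against 14, 18 and 18 and was lower.

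Within a gene, a peak can differ from the others of the same transcript. Of 233 peaks in genes with at least 2 tested peaks, 1 was higher and 1 lower than the rest of its gene (0.429% each) by the diffSpliceDGE test of edgeR, with 8 in each direction at an unadjusted p under 0.05. The higher one was the Gpx1 coding peak, at 3.86 on the log2 scale above the other Gpx1 peaks (diffSpliceDGE adjusted p = 0.024). It carried a miR-451a match with a mismatch at seed position 7. The lower one was a lincRNA peak of H19 at chr7:142577461-142577521 with 2, 3 and 4 reads in Ago and 6, 4 and 4 in IgG (-1.99, adjusted p = 0.024). On total reads and by limma diffSplice no peak was lower, so this call was lost under both. Neither direction had a call without an Ago library, when 39 to 41 peaks were tested. In the same RNA, the peak with the most reads, at chr7:142575796-142575840 on the minus strand, had 136, 158 and 176 in Ago and 28, 33 and 16 in IgG. The test recovered 25.8% of simulated 4-fold changes and none of the 2-fold ones.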

How the data were processed

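Raw read counts per peak were used as the authors deposited them, in mm10 coordinates, with reads overlapping a peak by at least 16 bases per the deposited column description. The submitters' processing notes name STAR, cutadapt, limma and bedtools; the sources used here give no version or role, and do not say whether duplicate reads were removed. The deposited IgG ratio compares summed peak heights in IgG and Ago. The authors' deposited score per microRNA codes the best of its seed matches in a peak. Peaks of the authors' table were called on pooled Ago libraries, which favours Ago. The members and lists were chosen with earlier results of these data known.

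Counts, per peak and summed per gene name, were fitted with edgeR 4.0.16 (R 4.3.3): TMM, filterByExpr (minimum count 10, total 15), quasi-likelihood test, Benjamini-Hochberg over all features tested. The test recovered 75% of simulated 4-fold and 17% of 2-fold changes for WT genes (3 false calls) and 76% and 19% for WT peaks (2 false calls). The simulated counts took the TMM scale as true and held only features that had passed the filter. The false calls therefore do not cover errors from the scale or the filter. Shares were compared by exact permutation over libraries, two-sided. Alternatives were DESeq2 1.42.0, limma-voom 3.58.1, other scalings, filters, peak subsets and leaving out each library. RefSeq symbols matched 11136 of the 12102 names, and synonyms 513 more. Names turned into dates (15 names, 332 peaks) are not printed. By rule, the text names 15 genes per direction by smallest p, 10 peaks per direction at 1 per gene, 8 within-gene peaks per direction, the 8 genes with the most reads per antibody, up to 5 members per list and up to 3 seed match peaks per microRNA. Of the within-gene peaks and list members, those called are given. A result of the rule for lower genes is not reported here. The peaks with the most Ago reads in Kif11, Pds5a and H19 and the intergenic peaks were chosen after their values were seen. No peak sequence was read, since no genome was used here.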

Additional observations from a re-analysis of the deposited data

How the results depend on the processing

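No paired analysis was possible because the Ago and IgG groups share no number in their titles. Of 224 read shares and ratios recomputed, 212 kept their sign. Of 943 values of single genes 796 kept direction and call, 110 lost the call, 3 gained it and 34 changed sign. Of 551 values of single peaks 486 kept both, 58 lost the call and 7 changed sign. Of 116 counts of calls, 62 moved by more than 1.5 times.

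Peaks higher in Ago (321) numbered 57 with total reads as the scale, 4303 with no filter, 1636 with at least 5 reads in 3 libraries, 147 with that filter on total reads, and 18 with the scale of the gene fit. Leaving out 1 library gave 47 to 1081. Peaks lower (339) numbered 552, 134 with no scaling for depth, 129 by DESeq2, 618 with the 5-read filter on total reads, 199 with all 12 libraries in 1 fit and 606 with the gene scale. Leaving out 1 library gave 29 to 555. Genes higher (52) numbered 131 on total reads, 2433 with no scaling, 160 on the reads of tested genes, 31 by DESeq2, 79 by limma-voom, 491 with no filter, 97 with the 5-read filter and 82 with it on total reads. They numbered 2 with 3'UTR peaks, 2 with coding peaks, 1 without peaks of an IgG ratio of 0.2 or more, and 3 to 153 without 1 library. Genes lower (339) numbered 13 with no scaling, 30 with 3'UTR peaks, 32 with coding peaks, 11 without the peaks of that ratio, and 64 to 372 without 1 library. Of the 52, 52 were still higher on total reads, 28 by DESeq2 and 42 by limma-voom, and of the 339, 321, 308 and 306 were still lower. Total gene reads set no change at 12.3 raw Ago reads for each IgG read, against 14.1 in the main fit. They so move every gene up, and that all 52 stayed higher was fixed in advance. Within genes, 12 peaks were higher and 20 lower with the 5-read filter, 0 lower on total reads and 0 by limma diffSplice, and 0 to 4 higher and 0 to 13 lower without 1 library. KO genes higher (43) numbered 71 on total reads.

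Shares that changed sign, in percentage points of Ago minus IgG, were miscellaneous transcripts (-0.0134 by peaks present or absent, -0.00310 to 0.00975 without 1 library), miR-21a-5p in all peaks (0.0804 for 6-mers or longer, 0.0221 for 8-mers, -0.0497 to 0.0227 without 1 library) and in 3'UTR peaks (-0.00242 for 6-mers or longer, -0.0173 to 0.0532), and miR-16-5p in 3'UTR peaks (-0.105 for 8-mers, -0.643 to 0.853). None of these had passed a test, and no share could, since the smallest possible exact permutation p was 0.1.

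With no scaling for depth, by construction raw reads, the log2 change turned positive for Apoa1 (2.05), Ttr (1.99), Afp (1.88), Fga (2.12), Apoa2 (2.30), Meg3 (0.86), Igf2 (1.91), H19 (1.89), Pabpc1 (2.69), P4ha1 (0.91), Malat1 (0.57), Rps9 (1.75), Rps20 (1.29), Rpl4 (2.44), Hist1h4d (2.25), mt-Co1 (0.53), mt-Nd6 (0.45), mt-Co3 (0.17), Cd44 (0.20), Camk1d (0.16), Slc25a37 (2.80), Alb (1.80), Slc4a1 (3.33), Tfrc (3.33), Mki67 (3.54) and Gm16867 (2.11). With no filter it was 0.14 for Slc4a1, 0.18 for Tfrc and 0.32 for Mki67, and leaving out 1 library gave -0.431 to 0.0640 for Mki67, positive without IgG library 11. With coding peaks alone it was -0.068 for Cltc and 0.041 for Gm16867, and without peaks of an IgG ratio of 0.2 or more -0.20 for Cltc and 0.67 for Cdk8. With the scale of the gene fit the peaks of Anp32b (-0.13), Alb (-1.44), Ccnf (-0.45) and Kng1 (-0.65) turned negative, and that of Alb also on total reads (-0.73), with the 5-read filter (-0.14) and with both (-0.73). The cause of the other changes was not tested. The scale of the gene fit, the reads of tested features as scale, the 5-read filter on total reads and the test by genotype of shares were chosen after seeing the data. With 13.1% to 21.4% of peaks read in an IgG library, depth limits the single peaks most.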

Other observations

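Some values lie outside the comparisons above. The 57 peaks higher in WT on total reads took 0.762% to 0.845% of the reads in WT Ago libraries and 0.292% to 0.341% in KO Ago libraries, against 0.139% to 0.212% in WT IgG and 0.107% to 0.205% in KO IgG. The choice of these peaks itself set the WT Ago and WT IgG values apart. It can also widen the gap between WT Ago and KO Ago. The 339 lower peaks took 0.592% to 1.21% in KO Ago and 10.9% to 16.1% in KO IgG, libraries that did not enter their choice. For miR-122-5p and miR-16-5p, which the deletion leaves in place, the ratio of shares of summed reads at 8-mer peaks, Ago over IgG, was 1.71 and 1.53 in WT and 3.38 and 2.34 in KO. The difference of the share differences between genotypes, for matches of at least a 7-mer-A1 over all peaks, was -0.481 percentage points for miR-122-5p (exact permutation p = 0.14) and -1.34 for miR-16-5p (exact permutation p = 0.17), each with an adjusted p = 0.255 over 6 microRNAs. Peaks with a single mismatch to miR-451a at seed position 5 had a ratio of 1.62 in WT and 1.19 in KO, and those at position 2 had 0.978 and 0.557.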
